A study of Mus musculus with 12 samples.

Results

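The genes described here are 10 genes of contractile actin filaments that are targets of serum response factor (SRF) in many cells: Acta2 and Actg2 (smooth muscle actins), Tagln (transgelin), Cnn1 and Cnn2 (calponins), Myl9 (a regulatory myosin light chain), Tpm1 and Tpm2 (tropomyosins), Cald1 (caldesmon) and Flna (filamin A). They were chosen from a readout of these data, because Acta2 was among the genes that were lowest in 2i relative to serum, and they are 10 of the 39017 genes in the gene table. The comparison of 2i with serum is therefore given as a description for these genes, and tests are read only for comparisons between cell lines and between the 2i effects of both lines. All 10 were found in the table, and 9 passed the filter on low counts. Actg2 did not pass.

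Poly(A) RNA was sequenced from mouse embryonic stem cells (mESCs) of 2 lines in 2 media, and each of the 4 groups had 3 biological replicates. J1 is a male wild-type line. 3B3-3l is a single line that lacks both endogenous Dnmt3a and Dnmt3b (Dnmt3a-/-, Dnmt3b-/-), carries a Dnmt3b transgene and was stably transfected with Flag-tagged Dnmt3l under blasticidin selection, both transgenes being driven by the ubiquitous CAG promoter. Serum medium held fetal calf serum and, by the sample labels, 500 U/ml LIF, a concentration for which the methods give a higher value. 2i medium was serum-free N2B27 with the MEK inhibitor PD0325901 at 1 uM, the GSK3 inhibitor CHIR99021 at 3 uM and 1000 U/ml LIF. J1 cells in serum were kept on inactivated feeder cells, which were depleted by repeated plating before analysis or transfer to 2i, whereas 3B3-3l cells were kept on gelatin. In serum, a difference between the lines and a difference in substrate therefore cannot be told apart. The 2i effect in J1 and the difference of the 2i effects also contain the J1 serum group, so the substrate cannot be told apart there either. A difference between the lines may likewise belong to this 1 derived line as a whole, and the transgenes and the clonal history cannot be told apart.

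SRF binds a short element known as the CArG box in promoters and enhancers of actin and actin-binding genes. Its cofactors of the MRTF family are held in the cytoplasm by monomeric actin and enter the nucleus when actin is assembled into filaments. Cofactors of the ternary complex family (Elk1, Elk3, Elk4) are instead activated by ERK, the kinase below MEK, and act on immediate early genes such as Fos. Serum is a classical stimulus of both branches. In differentiated smooth muscle, the cofactor myocardin (Myocd) drives the same contractile genes together with the smooth muscle myosin Myh11.

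The promoter sequences were searched for letters of the CArG box close to the start site. RefSeq promoter windows (GRCm38.p6, 250 bases before to 50 bases after the start) were found for 8 of the 10 genes, with 9 windows in all because Cald1 has separate windows for its outer and inner start. The names without a window are Actg2 and Tagln. The CArG box was searched as a pair of C, 6 bases that are each A or T, and a pair of G. This pattern is its own reverse complement, so that 1 search covers both strands. An exact box was found in 2 of the 9 windows, those of Cnn2 and Myl9 (2 of 8 genes), against 1.63% of all 32851 windows in the table. With up to 1 mismatch, 6 of the 9 windows had a match (6 of 8 genes), against 21.1% of all windows. The windows of Cnn1 and Tpm2 and the inner window of Cald1 held none of these letters, which says nothing about binding elsewhere. All 9 matches are printed with 10 bases on either side, in the direction of the gene. Capitals mark the matched letters, called the box in each line. They are matches of letters only, and binding of SRF was not measured.
Cnn2, chr10:79988534-79988563, plus strand, exact, box starts 56 bases upstream: cgcttccacgCCTTATAAGGacatttgctc
Myl9, chr2:156775293-156775322, plus strand, exact, box starts 161 bases upstream: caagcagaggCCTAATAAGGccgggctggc
Myl9, chr2:156775355-156775384, plus strand, 1 mismatch, box starts 99 bases upstream: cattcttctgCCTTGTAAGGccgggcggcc
Acta2, chr19:34255438-34255467, minus strand, 1 mismatch, box starts 84 bases upstream: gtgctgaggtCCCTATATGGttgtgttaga
Acta2, chr19:34255388-34255417, minus strand, 1 mismatch, box starts 34 bases upstream: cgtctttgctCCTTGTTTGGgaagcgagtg
Tpm1, outer start, chr9:67049415-67049444, minus strand, 1 mismatch, box starts 221 bases upstream: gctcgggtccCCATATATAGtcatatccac
Tpm1, outer start, chr9:67049274-67049303, minus strand, 1 mismatch, box starts 80 bases upstream: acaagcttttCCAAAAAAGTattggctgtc
Cald1, outer start, chr6:34598291-34598320, plus strand, 1 mismatch, box starts 203 bases upstream: acggtttcaaGCTTTTTAGGacttggtttt
Flna, chrX:74246559-74246588, minus strand, 1 mismatch, box starts 44 bases upstream: ctttcgcataCATTTAAAGGgctcgctctt

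Libraries held 37050652 to 44515395 estimated reads, and 3 reads corresponded to 0.0684 to 0.0813 counts per 1000000 reads (CPM, scaled with TMM library sizes). No pair of replicates agreed within sampling noise. All 12 libraries carried mESC markers at high level, with a summed level of 8 pluripotency genes of 4382 to 6208 CPM, and Pou5f1 had group means of 1224 to 1333 CPM. The label smooth muscle was checked against 10 smooth muscle defining genes, and the result was mixed. Their summed level was 93.8 to 112 CPM in serum and 53.1 to 63 CPM in 2i. In serum, Smtn had group means of 60.8 and 62.3 CPM, Des of 14.5 and 17.4 CPM, Synm of 11.7 and 13.1 CPM and Ppp1r14a of 5.9 and 6.44 CPM. The smooth muscle myosin Myh11 had group means of 0.274 to 0.733 CPM and Myocd of 0.057 to 0.277 CPM over all 4 groups, and Lmod1, Synpo2, Kcnmb1 and Mylk were at 0.215 to 2.26 CPM. Since the levels do not settle a cell type, the genes are called SRF contractile genes here. Fibroblast markers moved with the media. The summed level of 8 fibroblast defining genes was 40.3 to 40.8 CPM in J1 serum, 47.1 to 57.4 CPM in 3B3-3l serum, 4.96 to 6.24 CPM in J1 2i and 7.27 to 7.69 CPM in 3B3-3l 2i. Most of this sum came from Col1a1 and Thy1, while Dcn, Lum and Twist2 were at 0 in every 2i library and at group means of at most 0.309 CPM in serum. The part of other cells in the levels below was not tested.

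Acta2, the actin that marks smooth muscle and activated fibroblasts, was at 10.8, 11.3 and 10.8 CPM in the 3 J1 serum libraries and at 0.0456, 0.0229 and 0.0244 CPM in the 3 J1 2i libraries. In 3B3-3l it was at 13.6, 13.1 and 12.7 CPM in serum and at 0.0481, 0.0927 and 0.155 CPM in 2i. Every serum library was above every 2i library. These 2i levels rest on 4 reads in J1 and 12 reads in 3B3-3l, against 1320 and 1560 reads in serum. The ratio of the summed reads per effective library size was 352.5 in J1 (95% exact interval 137 to 1300) and 135 in 3B3-3l (77 to 262), intervals that cover counting error only. In bulk RNA, fewer cells with the transcript and less transcript per cell cannot be told apart. The actin genes are closely similar in coding sequence, so the division of reads among Acta2, Actg2, Acta1 and Actc1 can be uncertain and was not tested.

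Actg2, the enteric smooth muscle actin, was barely detected. It had 18 reads over the 3 J1 serum libraries, 16 over 3B3-3l serum, 8 over J1 2i and 0 over 3B3-3l 2i. J1 serum and J1 2i overlapped, with 0.12 to 0.19 CPM against 0.023 to 0.137 CPM. At this depth no difference in Actg2 was detectable in J1. In 3B3-3l the libraries had 3, 9 and 4 reads in serum and 0 in each of the 3 in 2i, which do not overlap, and in 2i the J1 libraries had 6, 1 and 1 reads. Since Actg2 did not pass the filter and shares sequence with other actins, no test is read for it.

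Tagln, an actin-bundling protein of the calponin family, was at 41.7, 43.1 and 42 CPM in J1 serum and at 0.98, 0.826 and 0.707 CPM in J1 2i. In 3B3-3l, Tagln was at 37.4, 30.7 and 28.1 CPM in serum and at 1.42, 2.08 and 1.21 CPM in 2i. The highest Tagln levels were therefore in J1 serum and the lowest in J1 2i, with both 3B3-3l groups in between. The log2 change in 2i was -5.65 ± 0.16 (SE) in J1 and -4.34 ± 0.14 in 3B3-3l.

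Cnn1, the calponin of differentiated smooth muscle, inhibits actomyosin ATPase. It was at 7.64, 6.94 and 6.99 CPM in J1 serum and at 11.8, 11.8 and 11.9 CPM in 3B3-3l serum. In 2i it had 4, 7 and 0 reads in the J1 libraries and 8, 4 and 2 in the 3B3-3l libraries. The serum to 2i ratio was 84.1 in J1 (46.8 to 169) and 104.3 in 3B3-3l (62 to 191). Cnn2, a calponin of many non-muscle cells, stayed well expressed in 2i. Its group means were 84.2 ± 1.42 CPM (SD, n = 3) in J1 serum, 18.2 ± 1.89 in J1 2i, 111 ± 7.16 in 3B3-3l serum and 25 ± 1.18 in 3B3-3l 2i. Its log2 change in 2i was -2.21 ± 0.07 (SE) in J1 and -2.15 ± 0.07 in 3B3-3l.

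Myl9, the regulatory light chain that is phosphorylated when smooth muscle and non-muscle myosin contract, was at 7.52, 6.99 and 7.62 CPM in J1 serum. It was at 14, 11.2 and 10.7 CPM in 3B3-3l serum. In 2i it had 1, 2 and 4 reads in J1 and 5, 6 and 5 reads in 3B3-3l, that is, 0.0228 to 0.0976 CPM and 0.12 to 0.139 CPM. The serum to 2i ratio was 135.2 in J1 (65.3 to 337) and 92.1 in 3B3-3l (56.5 to 162). Acta2, Cnn1 and Myl9 thus had at most 8 reads in any 2i library.

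The tropomyosins, which lie along the actin filament and regulate access of myosin, were lower in 2i by smaller amounts. Tpm2 had group means of 30.9 ± 1.27 CPM in J1 serum, 6.78 ± 1.06 in J1 2i, 26.5 ± 3.45 in 3B3-3l serum and 5.9 ± 0.6 in 3B3-3l 2i. The log2 change of Tpm2 was -2.19 ± 0.11 in J1 and -2.16 ± 0.11 in 3B3-3l. Tpm1 was at 156.8 to 164.4 CPM in J1 serum, 61.7 to 68.2 in J1 2i, 196.2 to 230.8 in 3B3-3l serum and 76.1 to 81.3 in 3B3-3l 2i. Its log2 change was -1.31 ± 0.06 in J1 and -1.41 ± 0.06 in 3B3-3l.

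Flna, which crosslinks actin filaments and links them to integrins, changed least among the genes that were lower in both lines. It was at 673.5, 599.3 and 665.5 CPM in J1 serum and at 442.8, 413.2 and 396.7 CPM in J1 2i. The log2 change of Flna was -0.63 ± 0.05 in J1 and -0.71 ± 0.05 in 3B3-3l. Cald1, a calmodulin-binding inhibitor of actomyosin, was the exception. It was at 42.6, 46.2 and 46.7 CPM in J1 serum and at 67.4, 62.5 and 60.7 CPM in J1 2i, so that every J1 2i library was above every J1 serum library. In 3B3-3l it was at 58.5, 52.4 and 53.7 CPM in serum and at 55.7, 50.5 and 50.3 CPM in 2i, which overlap. The log2 change of Cald1 was 0.49 ± 0.06 in J1 and -0.07 ± 0.06 in 3B3-3l.

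**Figure D1:**
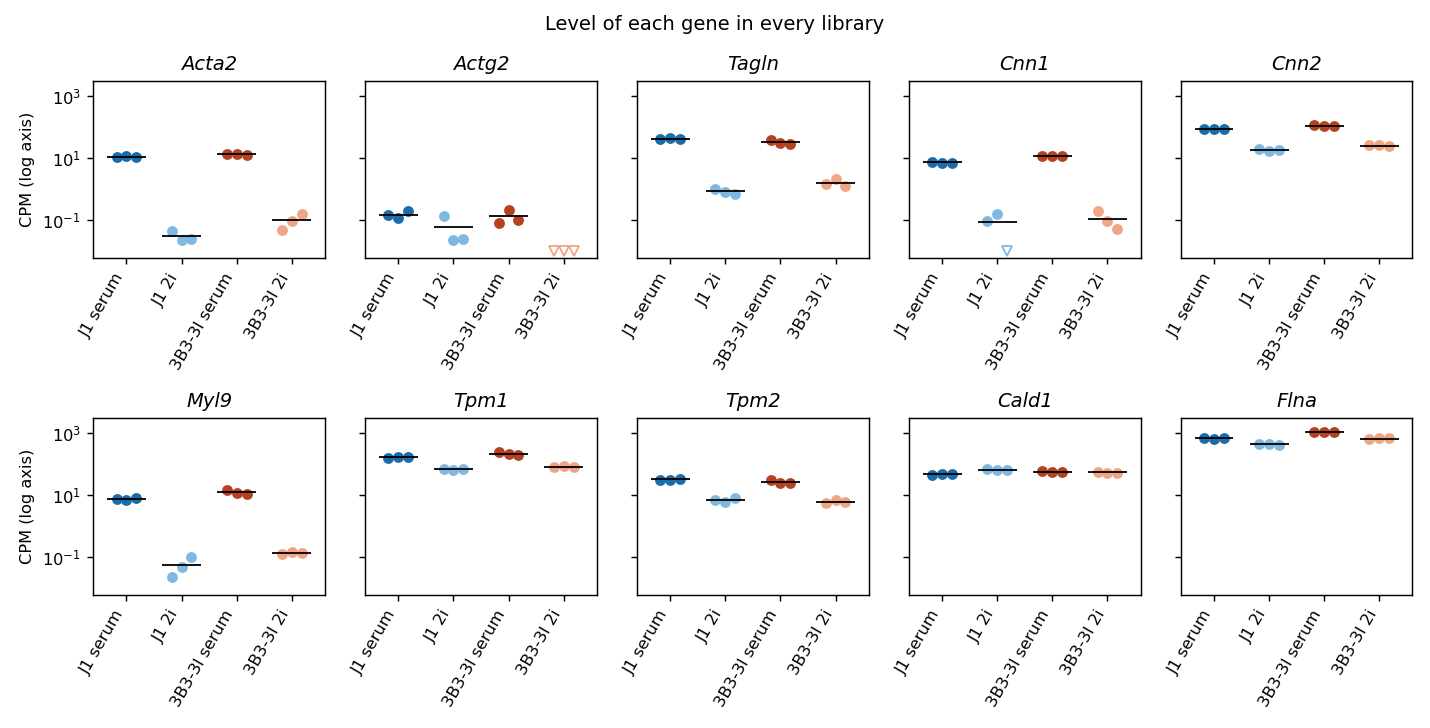
Level of the 10 genes in each of the 12 libraries, in CPM on a log axis, with groups along the horizontal axis. Points are libraries, horizontal lines are group means and open triangles at 0.01 CPM mark libraries with 0 reads. Acta2, Cnn1 and Myl9 sit near or below 0.2 CPM in 2i, whereas Cald1 and Flna stay within 1 order of magnitude in all groups.

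By the edgeR test, 8 of 9 tested genes were called lower in 2i in J1 and 1, Cald1, higher. Of all 17885 genes tested, 32.9% were called lower and 33.2% higher in that comparison. In 3B3-3l, 8 of 9 were called lower and 0 higher, against 32.7% of all genes lower and 32.7% higher. The median log2 change of the 9 genes was -2.21 in J1 and -2.16 in 3B3-3l, and that of all genes was 0.014 and 0.0091. Since this contrast was used to choose the genes, nothing is read from these counts.

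**Figure D2:**
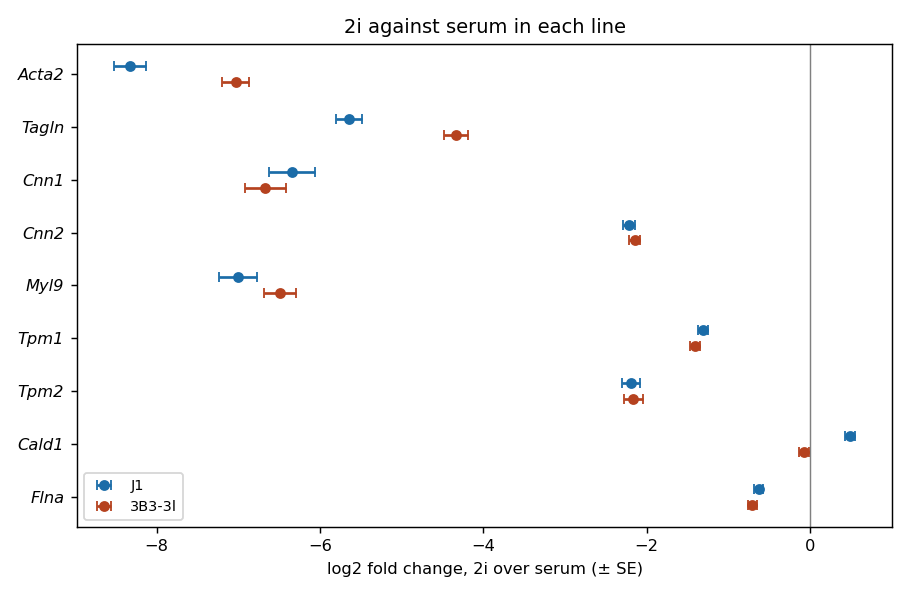
Log2 fold change in 2i over serum for the 9 tested genes in J1 and in 3B3-3l. Points are edgeR estimates, and bars are standard errors derived from the F statistic of the edgeR test. The estimates of Acta2, Cnn1 and Myl9 rest on few reads in 2i and depend on the prior count of the fit. Their bars understate the counting error, for which the exact intervals in the text are the wider guide. Cald1 lies right of 0 in J1 and near 0 in 3B3-3l, and the other genes lie left of 0.

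Levels between genes were compared per transcript length, as reads per kilobase and per 1000000 reads (RPKM) summed over the transcripts of a gene. In J1 serum the order was Tpm1 at 116.5 ± 3.08 RPKM, Flna at 104.5 ± 6.8, Cnn2 at 47.8 ± 1.99, Tpm2 at 30.4 ± 1.22, Tagln at 29.8 ± 0.42, Cald1 at 18.8 ± 1.55, Myl9 at 8.18 ± 0.28, Acta2 at 6.8 ± 0.17, Cnn1 at 3.27 ± 0.18 and Actg2 at 0.157 ± 0.051. Tpm2 and Tagln, neighbours in this order, overlapped over their libraries. In J1 2i, Flna led with 69.3 ± 7.53 RPKM, followed by Tpm1 with 52.3 ± 2.79 and Cald1 with 22.6 ± 0.92. Below these, Cnn2 had 9.52 ± 1.17 RPKM, Tpm2 6.78 ± 1.01, Tagln 0.597 ± 0.093, Myl9 0.0675 ± 0.03, Actg2 0.0622 ± 0.055, Cnn1 0.0384 ± 0.037 and Acta2 0.0194 ± 0.0078. Among the last 4, neighbours in this order overlapped, whereas Tagln lay above them without overlap. In 3B3-3l serum, Flna at 163.7 ± 4.18 RPKM and Tpm1 at 156.1 ± 14.3 were first and overlapped, followed by Cnn2 at 58.5 ± 6.92, and then by Tpm2, Tagln and Cald1 at 26 ± 3.33, 22.7 ± 3.25 and 21.6 ± 3.84, which overlapped as well. Myl9 (13.2 ± 1.66), Acta2 (8.17 ± 0.23), Cnn1 (5.4 ± 0.07) and Actg2 (0.118 ± 0.061) followed without overlap. In 3B3-3l 2i the order was Flna at 108.5 ± 5.17 RPKM, Tpm1 at 62.5 ± 2.37, Cald1 at 20.3 ± 1.73, Cnn2 at 13.2 ± 0.48, Tpm2 at 5.83 ± 0.63, Tagln at 1.1 ± 0.31, Myl9 at 0.2 ± 0.05, Acta2 at 0.0611 ± 0.033 and Cnn1 at 0.051 ± 0.033, the last pair overlapping, with Actg2 at 0. Cald1 was thus 6th of the 10 genes in serum and 3rd in 2i in either line.

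Tpm1 transcripts differed between media in where they start as well as in their total. Vertebrate Tpm1 makes long tropomyosins from an outer first exon, and short ones from an inner first exon. The 21 annotated transcripts were sorted into groups whose starts lie within 1000 bases of a neighbour, a grouping made after the values had been seen. The 13 transcripts of the first start group, which include the 284-residue models Tpm1-002, Tpm1-003, Tpm1-004, Tpm1-006 and Tpm1-010, summed to 63, 66.8 and 67.3 RPKM in J1 serum. They summed to 7.54, 7.85 and 6.36 RPKM in J1 2i. The corresponding sums in 3B3-3l were 112.6, 98.7 and 94.8 RPKM in serum and 8.79, 7.43 and 6.54 RPKM in 2i. The means were 9.06 times as high in serum as in 2i in J1 and 13.4 times as high in 3B3-3l. The 7 transcripts of the second start group begin 5444 bases or more downstream and include the 248-residue models Tpm1-015, Tpm1-016 and Tpm1-020. They summed to 49.6 ± 0.89 RPKM in J1 serum, 43.7 ± 3.47 in J1 2i, 51.5 ± 5.03 in 3B3-3l serum and 53.5 ± 1.59 in 3B3-3l 2i, a serum to 2i ratio of 1.13 and 0.963. Within Tpm1, the first start group held 56.4% ± 0.72 of the transcripts in J1 serum, 13.9% ± 2.15 in J1 2i, 65.4% ± 0.77 in 3B3-3l serum and 12.1% ± 1.51 in 3B3-3l 2i. The lower total of Tpm1 in 2i was therefore carried by the transcripts that start at the outer promoter, the one printed above.

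Tpm1-006, a model of the first start group, was at 21.9, 32.4 and 22.4 units of the deposited transcript abundance (TPM) in J1 serum and at 62, 40.5 and 53.2 TPM in 3B3-3l serum, and was listed at 0 in all 6 libraries in 2i. Tpm1-002, of the same start group, was at 6.37 to 8.55 TPM in J1 serum and 3.7 to 5.61 TPM in J1 2i. A value listed at 0 can be a failed split of reads between models that share exons, so the sum over the start group is the firmer measure.

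Cald1 transcripts from the outer start were also lower in 2i, although the Cald1 total was higher in 2i in J1. The long caldesmon of smooth muscle and the short caldesmon of other cells come from the same gene by alternative starts and splicing. The 7 transcripts of the first start group summed to 6.66, 4.94 and 7.24 RPKM in J1 serum and to 0.959, 1.51 and 1.71 RPKM in J1 2i. In 3B3-3l the sums were 6.74, 6.8 and 4.16 RPKM in serum and 0.66, 1.84 and 0.72 RPKM in 2i. The first start group thus did not overlap between media in either line, with a ratio of means of 4.5 in J1 and 5.5 in 3B3-3l. The 3 transcripts of the second start group, 110942 bases or more downstream, summed to 8.56 ± 0.99 RPKM in J1 serum and 17.1 ± 1.64 in J1 2i. Those in 3B3-3l summed to 11.3 ± 1.35 in serum and 14.3 ± 0.83 in 2i. The next group of 4 short models, 147452 bases or more downstream, had means of 3.38 to 4.12 RPKM in all groups. The 768-residue model Cald1-006, which begins at the outer start, was at 0.433 to 1.4 TPM in all 12 libraries, and its J1 serum and J1 2i libraries overlapped. In 3B3-3l it was at 1.402, 1.005 and 1.129 TPM in serum and at 0.596, 0.568 and 0.642 TPM in 2i, which do not overlap. The 536-residue Cald1-015, from the same start group, was at 1.4 to 3.28 TPM in serum and listed at 0 in all 2i libraries.

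**Figure D3:**
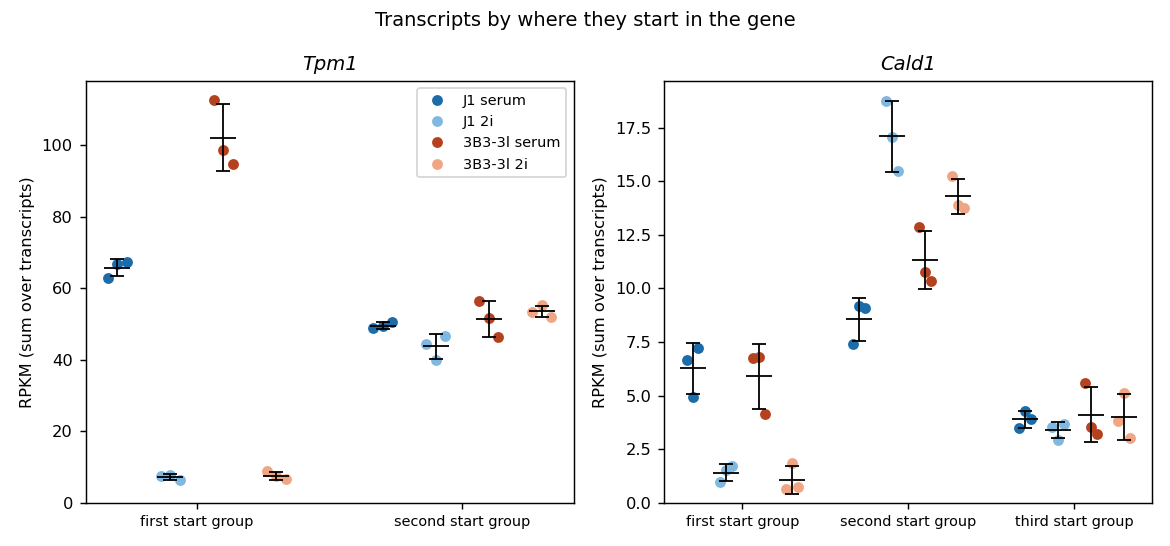
Levels of Tpm1 and Cald1 transcripts by where they start in the gene, in RPKM summed over the transcripts of a start group. Points are libraries, and black bars are means ± SD over 3 libraries. The first start group is lower in 2i in both genes and both lines, whereas the second is level in Tpm1 and higher in 2i in Cald1.

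Between lines within a medium, start groups were compared by an exact two-sided permutation test of 3 libraries against 3, which cannot go below 0.1. Over 16 such comparisons, 5 reached this smallest p, with an adjusted p of 0.32. They were the first start group of Tpm1 in serum, which was 1.55 times as high in 3B3-3l, its second start group in 2i (1.22 times), its last in serum (2.03 times, at 1.26 and 2.55 RPKM), and the second start group of Cald1 in serum (1.32 times) and in 2i (0.836 times). For the shares of 26 single transcripts with at least 5% of their gene in a group, the smallest adjusted p over 52 comparisons was 0.65 by the same exact test.

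The comparison of 3B3-3l with J1 was not used to choose the genes, although it shares its libraries with the comparisons of media. In serum, 7 of 9 genes were called higher in 3B3-3l and 1 lower, against 21.5% of all genes higher and 17.2% lower. The median log2 difference was 0.388 for the 9 genes and 0.031 for all genes. Flna was higher by a log2 difference of 0.70 ± 0.05 (edgeR adjusted p = 1.39e-07), with 1044 to 1053 CPM in 3B3-3l against 599.3 to 673.5 CPM in J1. Cnn1 (0.72 ± 0.14, edgeR adjusted p = 0.000785), Myl9 (0.70 ± 0.11, edgeR adjusted p = 0.00013), Cnn2 (0.40 ± 0.07, edgeR adjusted p = 0.000195) and Tpm1 (0.39 ± 0.06, edgeR adjusted p = 9.17e-05) were also higher in 3B3-3l, with every 3B3-3l library above every J1 library. Tagln was lower (-0.40 ± 0.10, edgeR adjusted p = 0.00644).

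Acta2 and Cald1 were called higher in 3B3-3l serum by smaller amounts that depended on the setting. The log2 difference of Acta2 was 0.26 ± 0.08 (edgeR adjusted p = 0.0236). Over the alternatives the edgeR and DESeq2 adjusted p of Acta2 ranged from 0.0142 to 0.0809. The call was lost without J1 serum replicate 1 (edgeR adjusted p = 0.0809), J1 serum replicate 3 (edgeR adjusted p = 0.0675), 3B3-3l serum replicate 1 (edgeR adjusted p = 0.0722) or 3B3-3l serum replicate 2 (edgeR adjusted p = 0.066). It was also lost with no filter on low counts (edgeR adjusted p = 0.073) and with transcript length as an offset (edgeR adjusted p = 0.0515). The log2 difference of Cald1 was 0.28 ± 0.06 (edgeR adjusted p = 0.0023) and was 0.19 (edgeR adjusted p = 0.187) when transcript length entered the fit as an offset. Tpm2 was not called (-0.22 ± 0.10, edgeR adjusted p = 0.0861), although it was called without 3B3-3l serum replicate 1 (-0.34, edgeR adjusted p = 0.0119), without J1 2i replicate 3 (-0.22), with no filter (-0.25) and in the fit of 6 libraries (-0.25). No gene was called with a difference past 2-fold. Col1a1, a fibroblast collagen, differed in the same direction (0.34 ± 0.07, edgeR adjusted p = 0.0021), and its part in these differences was not tested.

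In 2i, 4 of 9 genes were called higher in 3B3-3l and 1 lower, against 23% of all genes higher and 22.9% lower. Of the other 4 genes, 3 had at most 8 reads in any 2i library. Flna was higher by 0.62 ± 0.05 (edgeR adjusted p = 2.21e-07), Cnn2 by 0.46 ± 0.07 (edgeR adjusted p = 8.53e-05) and Tpm1 by 0.28 ± 0.06 (edgeR adjusted p = 0.00115). Tagln, which was lower in 3B3-3l in serum, was higher in 2i by 0.91 ± 0.23 (edgeR adjusted p = 0.00408). Cald1 had the opposite order, with a log2 difference of -0.29 ± 0.06 (edgeR adjusted p = 0.00136), which was -0.15 (edgeR adjusted p = 0.277) with transcript length as an offset. The differences of Acta2 (1.55 ± 0.54, edgeR adjusted p = 0.0697), Myl9 (1.20 ± 0.53, edgeR adjusted p = 0.0902) and Cnn1 (0.39 ± 0.62, edgeR adjusted p = 0.644) did not pass. These 3 genes passed the filter on low counts through the serum groups, and in 2i they had 4 and 12, 7 and 16, and 11 and 14 reads in all in J1 and 3B3-3l. Their p-values in 2i changed sides with 1 library, Acta2 (0.0371 in edgeR, adjusted) without 3B3-3l 2i replicate 1 and Myl9 (0.038 in edgeR, adjusted) without J1 2i replicate 3, and nothing is read from them. Tpm2 did not pass either (-0.20 ± 0.12, edgeR adjusted p = 0.21).

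**Figure D4:**
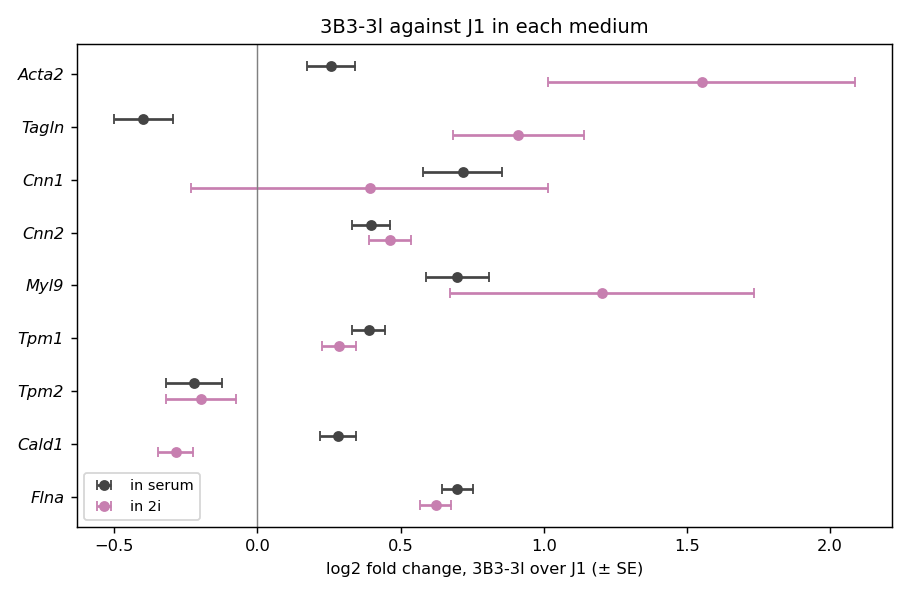
Log2 fold change in 3B3-3l over J1 for the 9 tested genes, in serum and in 2i. Points are edgeR estimates and bars are standard errors. Flna, Cnn2 and Tpm1 lie right of 0 in both media, whereas Tagln and Cald1 lie on opposite sides of 0 in serum and 2i.

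The difference of the 2i effects asks whether the response to 2i differed between a line with constitutive de novo methyltransferase expression and the wild type. It contains both serum groups, so a difference in the serum substrate, in the line as a whole and in the response to 2i cannot be told apart. Of the 9 genes, 1 was called with a higher effect in 3B3-3l and 1 with a lower effect, against 16.3% and 18.3% of all genes. Tagln fell less in 3B3-3l, with a difference of 1.31 ± 0.25 on the log2 scale (edgeR adjusted p = 0.000885). Cald1, which was higher in 2i in J1 and level in 3B3-3l, had a difference of -0.57 ± 0.09 (edgeR adjusted p = 0.000154), which was -0.34 (edgeR adjusted p = 0.102) with transcript length as an offset. The differences of Cnn2, Tpm1, Tpm2 and Flna did not pass. Those of Cnn1 (-0.32 ± 0.69) and Myl9 (0.51 ± 0.53) rest on few reads in 2i, and nothing is read from them. Acta2, whose 2i effect was used to choose the genes, had a difference of 1.29 ± 0.54, given without a test. For Cnn2 (0.07 ± 0.10), Tpm1 (-0.10 ± 0.08), Tpm2 (0.03 ± 0.16) and Flna (-0.08 ± 0.08) the standard errors were at most 0.16, and for Acta2, Cnn1 and Myl9, with few reads in 2i, they were 0.53 to 0.69.

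The paralogs of these genes give the family context. Of 14 paralogs, 13 were matched and tested, and in each line 6 of them were called lower and 4 higher in 2i, beside 32.9% lower and 33.2% higher of all genes in J1 and 32.7% each way in 3B3-3l. No excess over these shares is read from the counts. Actb, Acta1, Actc1, Cnn3 and Tpm3 are named after their values were seen. Among the actins, Actg1 (cytoplasmic gamma actin) was lower by 0.61 ± 0.06 in J1 and 0.99 ± 0.06 in 3B3-3l on the log2 scale. The striated muscle actins Acta1 and Actc1 were low in serum (3.85 and 0.359 CPM in J1, 6.17 and 0.644 CPM in 3B3-3l) and were at 0.0076 to 0.138 CPM in 2i. Actb (cytoplasmic beta actin) was at 1928 CPM in J1 serum, compared with 1733 CPM in J1 2i, with a log2 change of -0.15 ± 0.05 in J1 and 0.08 ± 0.05 in 3B3-3l. Among the filamins, Flnc, the muscle filamin, had log2 changes of -3.02 ± 0.07 in J1 and -5.16 ± 0.08 in 3B3-3l, larger than those of Flna, and the 2i effects differed by -2.14 ± 0.11 (edgeR adjusted p = 2.33e-09). In 2i, Flnc was at 6.64 CPM in J1 and 1.98 CPM in 3B3-3l, a line difference of -1.75 ± 0.09 (edgeR adjusted p = 7.6e-10).

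Tagln2, the transgelin of non-muscle cells, was higher in 2i by 0.88 ± 0.06 in J1 and by 0.17 ± 0.06 in 3B3-3l, opposite to Tagln. Its difference of the 2i effects, -0.71 ± 0.08 (edgeR adjusted p = 8.75e-06), was likewise opposite in sign to that of Tagln. Cnn3, the third calponin, had changes of -0.01 ± 0.04 and -0.07 ± 0.04, beside -2.21 for Cnn2 in J1. Tpm3 was higher in 2i by 0.22 ± 0.06 and 0.59 ± 0.06. Between lines, Actg1 was lower in 3B3-3l in serum by a log2 difference of -0.58 ± 0.06 (edgeR adjusted p = 1.35e-06). Its difference in 2i was -0.96 ± 0.06 (edgeR adjusted p = 4.15e-09). Tpm4 was higher in 3B3-3l serum (0.56 ± 0.04, edgeR adjusted p = 1.6e-07). Of the paralogs, 6 were called higher and 3 lower in 3B3-3l in serum, and 5 higher and 3 lower in 2i, beside 21.5% and 17.2% of all genes in serum and 23% and 22.9% in 2i. For the difference of the 2i effects, 2 paralogs were called higher and 5 lower, beside 16.3% and 18.3%.

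**Figure D5:**
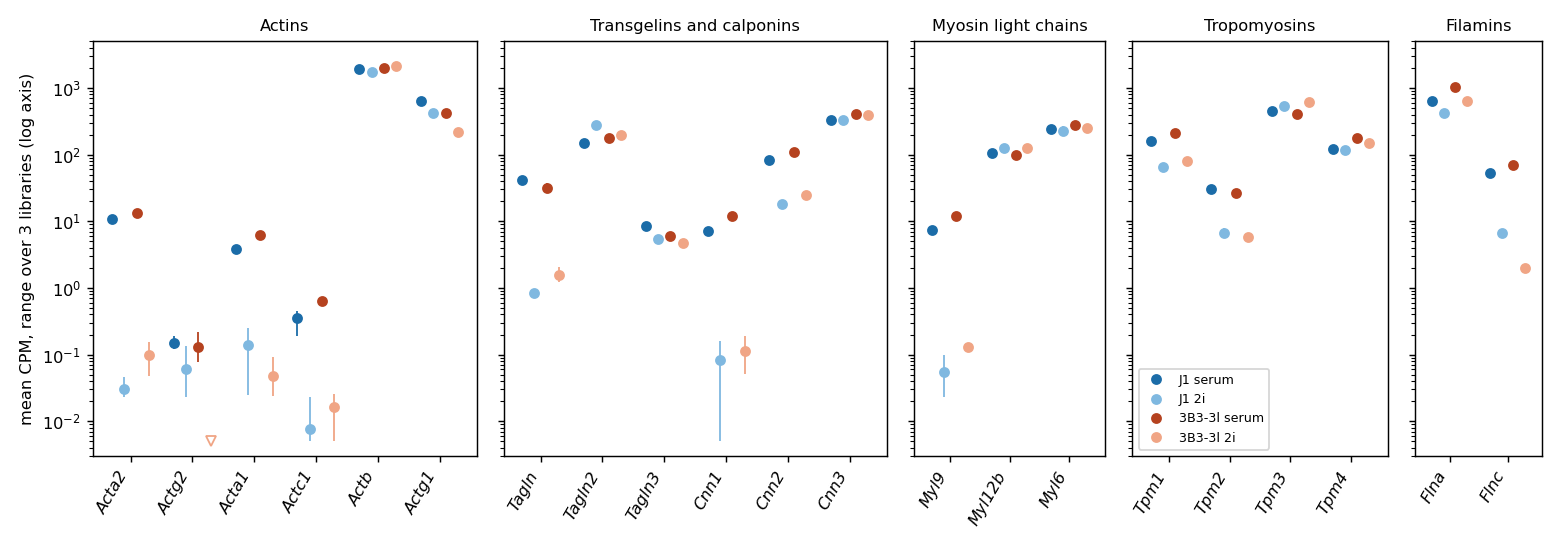
Group means in CPM on a log axis for 9 of the 10 genes and 12 of their paralogs, by protein family (Cald1 has no paralog in the list). Points are means of 3 libraries and vertical lines run from the lowest to the highest library, and lines or open triangles that reach 0.005 CPM mark libraries or groups with 0 reads. Acta2, Tagln, Cnn1 and Myl9, and the paralogs Acta1, Actc1 and Flnc, are more than 5-fold lower in 2i in both lines. Actb, Cnn3, Myl6, Myl12b and Tpm4 stay within 1.5-fold between media.

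Of 22 other cytoskeletal targets of SRF and MRTF, all of them tested, 14 were called lower and 4 higher by 2i in J1, beside 32.9% and 33.2% of all genes. Their median log2 change in J1 was -0.40. In 3B3-3l, 14 passed as lower and 5 as higher, beside 32.7% each way, and the median was -0.53. Pdlim7, a PDZ-LIM protein of actin fibres, had changes of -1.50 ± 0.09 in J1 and -2.02 ± 0.09 in 3B3-3l. Zyx (zyxin), a focal adhesion protein, had changes of -0.98 ± 0.07 and -2.38 ± 0.08, and its difference of the 2i effects was -1.40 ± 0.10 (edgeR adjusted p = 1.25e-07). Zyx was at 31.3 and 38.5 CPM in serum in J1 and 3B3-3l and at 15.9 and 7.39 CPM in 2i, where the line difference was -1.10 ± 0.08 (edgeR adjusted p = 2.17e-08). In 3B3-3l against J1, 11 of the 22 were called higher and 3 lower in serum, and 10 higher and 5 lower in 2i, beside 21.5% and 17.2% of all genes in serum and 23% and 22.9% in 2i. For the difference of the 2i effects, 6 of these targets passed as higher in 3B3-3l and 8 as lower, beside 16.3% and 18.3%. The list shares Actb, Actg1, Acta1, Actc1, Tpm3, Tpm4 and Tagln2 with the paralogs and, among others, Srf with the regulators below. The counts of these lists are therefore not independent.

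Immediate early targets belong to the branch of SRF activity that ERK feeds. Of 8 such genes, 7 were tested. In J1, 6 were called lower in 2i and 0 higher. In 3B3-3l, 5 passed as lower and 2 as higher. The shares of all genes were 32.9% lower and 33.2% higher in J1 and 32.7% each way in 3B3-3l. Egr1 was at 99.3 CPM in J1 serum, compared with 10.7 CPM in J1 2i, and at 49.2 and 1.5 CPM in 3B3-3l, with log2 changes of -3.22 ± 0.23 and -5.06 ± 0.30. Fos changed by -2.84 ± 0.13 and -3.07 ± 0.13. Ier2 had changes of opposite sign, -0.21 ± 0.07 in J1 and 0.34 ± 0.07 in 3B3-3l, and the 2i effects differed by 0.55 ± 0.10 (edgeR adjusted p = 0.000525). Between lines, 1 was called higher and 3 lower in serum, and 0 higher and 2 lower in 2i, beside 21.5% and 17.2% of all genes in serum and 23% and 22.9% in 2i. Egr1 was lower in 3B3-3l in serum by a log2 difference of -1.01 ± 0.21 (edgeR adjusted p = 0.00109), a call that DESeq2 did not make (adjusted p = 0.081), and its difference in 2i was -2.86 ± 0.33 (edgeR adjusted p = 4.22e-06). Its 2i effects differed by -1.85 ± 0.40 (edgeR adjusted p = 0.00227). Ier2 was lower in 3B3-3l serum (-0.40 ± 0.07, edgeR adjusted p = 0.000326) and Junb in 3B3-3l 2i (-0.23 ± 0.09, edgeR adjusted p = 0.0466). The call of Junb was lost with a replicate block (edgeR adjusted p = 0.0659) and in the fit of 6 libraries (edgeR adjusted p = 0.0514). It was also lost without 3B3-3l 2i replicate 1, 2 or 3, 3B3-3l serum replicate 2 or J1 2i replicate 3, with edgeR adjusted p-values of 0.112, 0.0601, 0.0959, 0.0613 and 0.244.

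Of 17 regulators of SRF, 16 were matched and tested. In J1, 7 passed as lower in 2i and 6 as higher, with a median log2 change of 0.0979. In 3B3-3l, 6 passed in each direction, with a median of 0.122. The shares of all genes, 32.9% lower and 33.2% higher in J1 and 32.7% each way in 3B3-3l, were close to these. Srf itself was at 67.6 ± 3.03 CPM in J1 serum, compared with 27.3 ± 1.8 CPM in J1 2i, and at 74.8 and 36 CPM in 3B3-3l. Its log2 change was -1.31 ± 0.07 in J1 and -1.05 ± 0.07 in 3B3-3l, and in 2i it was higher in 3B3-3l by 0.40 ± 0.07 (edgeR adjusted p = 0.000164). Smad3, a TGF-beta effector, was higher in 2i in J1 by 0.69 ± 0.05 and was higher in 3B3-3l than in J1 in serum by 0.43 ± 0.05 (edgeR adjusted p = 1.7e-05). Tgfb1, the ligand TGF-beta 1, was higher in 2i in 3B3-3l by 0.72 ± 0.08, and its 2i effects differed by 0.56 ± 0.12 (edgeR adjusted p = 0.00184). Elk3 was higher in 3B3-3l than in J1 in 2i by 1.49 ± 0.09 (edgeR adjusted p = 2.99e-09), with 14.2 and 5.06 CPM, and its 2i effects differed by 1.27 ± 0.12 (edgeR adjusted p = 1.73e-06). Between lines in serum, 2 regulators were called higher and 1 lower, and in 2i 6 higher and 0 lower, beside 21.5% and 17.2% of all genes in serum and 23% and 22.9% in 2i. The difference of the 2i effects was called higher for 5 and lower for 1, beside 16.3% and 18.3%.

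Genes with the most similar profile to Acta2 over the 4 groups were looked for among 10136 tested genes whose highest group mean reached 10 CPM. Similarity was the root mean square difference of mean log2(CPM + 1), centred on each gene's own mean. Because 1 CPM is added, levels far below 1 CPM, such as those of Acta2 in 2i, enter as nearly 0. The change of Acta2 is thereby compressed, and a near profile does not mean an equal fold change. The nearest to Acta2 were Cldn6 (0.0933), Sema3e (0.101) and Fgf15 (0.172). Cldn6, a tight junction claudin, was at 60.4 CPM in J1 serum, 4.18 in J1 2i, 75.8 in 3B3-3l serum and 4.02 in 3B3-3l 2i. The nearest to Tagln were Esrp1 (0.23), Tcfl5 (0.286) and Slc27a2 (0.301). Esrp1, an epithelial splicing regulator, was at 60.6 and 57.8 CPM in serum in J1 and 3B3-3l and at 1.98 CPM in 2i in both. None of these 6 genes is a member of the lists above.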

How the data were processed

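The authors quantified strand-aware reads against mm10 transcript models with Sailfish and summed transcripts per gene with tximport. They deposited a gene table of expected counts (estimated reads, neither scaled by library size nor by length) and, for each library, transcript tables with TPM, effective lengths and estimated counts. The methods name RefSeq models, whereas the identifiers are those of Ensembl. Columns were matched to samples by their titles. The transcript counts of each of the 10 genes added up to 100% of its deposited gene count.

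Estimated counts were rounded and fitted with edgeR 4.0.16 (R 4.3.3, quasi-likelihood, TMM, filterByExpr, 1 coefficient per group, all 12 libraries), which tested 17885 genes with a biological coefficient of variation of 6.49%. Calls were made where p, adjusted by Benjamini-Hochberg within each contrast, was below 0.05. CPM are means ± SD over 3 libraries, and errors of log2 changes are SE. Each SE is the absolute log2 change divided by the square root of the edgeR F statistic. For Acta2, Cnn1 and Myl9 in the comparisons of media, this SE is smaller than the counting error. Replicates are biological per the labels, which do not say whether they were separate cultures, so p-values measure the spread between these samples. On simulated counts for these libraries the script was tested before use. RPKM are transcript reads per effective length and TMM library size. Of the gene identifiers, 85.6% (98.4% of reads) had a symbol.

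Transcript names and distances between starts come from Gencode vM1 (mouse NCBIM37), and no coordinates were taken from it. Promoter sequences and coordinates are RefSeq GRCm38.p6. The 10 genes and all gene lists (SRF regulators, other SRF targets, immediate early targets, paralogs, and markers of smooth, cardiac and skeletal muscle, fibroblasts, pluripotent cells, primitive endoderm and early mesoderm) were chosen with earlier results of these data known. Named beyond the 10 genes were, per list and contrast, up to 2 called genes with the largest change and at least 10 CPM in the highest group, and others only where stated or as cell markers. Some genes of the lists, among them 1 that this rule selects, are not reported here by name. Exact intervals and the limit of 3 reads cover counting error only. The study pooled libraries for sequencing, and the labels do not give the pool of each. Alternatives were DESeq2 1.42.0 tests and size factors, other filters, length offsets, a replicate block, fits of 6 libraries, a 2-fold limit and leaving out each library.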

Additional observations from a re-analysis of the deposited data

Results flagged for a closer look

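The 2i effects of 2 of the 9 tested genes, 1 higher and 1 lower in 3B3-3l, differed between the lines in a test of the difference itself. Of all genes, 16.3% were called higher and 18.3% lower in this test, so the count is no result about these genes as a group. Tagln had a log2 difference of 1.31 ± 0.25 (edgeR adjusted p = 0.000885, 1.88e-07 to 0.00574 over the alternatives), with the order of the lines reversed between media. Tagln was at 42.3 CPM in J1 against 32.1 in 3B3-3l in serum, and 0.838 against 1.57 in 2i, with no overlap between the lines in either medium. Cald1 had a log2 difference of -0.57 ± 0.09 (edgeR adjusted p = 0.000154, 2.65e-08 to 0.102 over the alternatives), with 45.2 CPM in J1 and 54.9 in 3B3-3l in serum, and 63.5 and 52.1 in 2i. The call of Cald1 was lost when transcript length entered the fit. The share of Cald1 transcripts from its first start group was lower in 2i in both lines. It was 33.3% in J1 serum, 6.21% in J1 2i, 27.1% in 3B3-3l serum and 5.2% in 3B3-3l 2i. The share of the second start group rose more in J1, from 45.4% in serum to 75.4% in 2i, than in 3B3-3l, from 53% to 70.5%. Of 12 tested fibroblast genes, 2 were called higher and 5 lower in this test, beside 16.3% and 18.3% of all genes. The median log2 difference of these 12 was -0.722. Among them, Thy1 had a higher 2i effect in 3B3-3l (0.83 ± 0.17, edgeR adjusted p = 0.00122), and Col1a1 a lower one (-0.84 ± 0.14, edgeR adjusted p = 0.000242). The part of other cells in both differences was not tested.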

How the results depend on the processing

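The counts of genes called were 9 and 8 for 2i in J1 and 3B3-3l, 8 and 5 for the lines in serum and 2i, and 2 for the difference of the 2i effects. With at least 10 counts in every library, the counts for 2i in 3B3-3l and for the lines in serum were 5 each, since Acta2, Cnn1 and Myl9 were no longer tested. With transcript length offsets the count for the difference of the 2i effects was 1. With a 2-fold limit it was 1, and those for the lines were 0 in serum and 0 in 2i. Without 1 library, the counts ranged from 9 to 9, 8 to 8, 7 to 9, 5 to 6 and 2 to 2. The labels number the replicates alike in each group, but same-numbered libraries did not deviate together (r from -0.118 to 0.062). The fit with a replicate block gave 9, 8, 8, 5 and 2 calls and changed no call of the 10 genes. Among the other named genes it ended the call of Junb between lines in 2i (adjusted p = 0.0659 in edgeR with the replicate block). Over all genes the 5 comparisons made 11820, 11688, 6916, 8208 and 6200 calls, of which the 2-fold limit left 4143, 4190, 820, 1447 and 1470.

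Every reversed value of the 10 genes was one that was not called, and their cause was not tested. The difference of the 2i effects of Tpm2 was -0.0064 with at least 10 counts and -0.085, -0.028, -0.024, -0.07 and -0.034 without 1 library, that of Flna 0.0053 with length offsets, and those of Cnn1 (0.50) and Cnn2 (-0.0087) without J1 2i replicate 2. The line difference of Cnn1 in 2i was -0.22 without 3B3-3l 2i replicate 1 and -0.15 without J1 2i replicate 3. Without 1 library, the line difference of Cnn1 in 2i reached 1.21, and the differences of the 2i effects ranged up to 0.15 for Tpm2 and 0.14 for Cnn2 and down to -0.93 for Cnn1.

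Estimated reads in place of TPM gave 58.1% in J1 serum and 67.5% in 3B3-3l serum for the first start group of Tpm1. Without 1 library the share of Tpm1 was 56% to 56.7% in J1 serum, 12.9% to 15.1% in J1 2i, 65.1% to 65.8% in 3B3-3l serum and 11.2% to 12.7% in 3B3-3l 2i. The share of Cald1 was 31% to 36.5%, 5.35% to 7.26%, 24.9% to 29% and 3.52% to 6.24% in the same order. An exact CArG box was found in 2 of 8 genes and, with 1 mismatch, in 6. Low depth, 0 to 8 reads per library, limits the 2i levels of Acta2, Cnn1 and Myl9.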

Other observations

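Markers of striated muscle and early mesoderm moved in both directions, whereas most smooth muscle markers were called lower in 2i. Genes in this section were named after their values were seen. The counts stand beside 32.9% lower and 33.2% higher of all genes in J1 and 32.7% each way in 3B3-3l, and with 6 to 12 genes a list no excess over these shares is read from them. Of 10 tested cardiac and skeletal muscle genes, 7 were called lower in 2i and 3 higher by the edgeR test, in each line. Myh6, the cardiac alpha myosin, was at 19.6 CPM in J1 serum, compared with 0.822 CPM in J1 2i, and at 13.3 and 0.493 CPM in 3B3-3l. The atrial light chain Myl7 went the other way, with 5.65 CPM in J1 serum, 20 in J1 2i, 4.11 in 3B3-3l serum and 10.2 in 3B3-3l 2i. So did the slow skeletal troponin Tnni1, with 0.942, 6.91, 0.456 and 5.14 CPM in the same order.

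Of 10 smooth muscle defining genes, 8 were called lower in J1 2i and 9 in 3B3-3l 2i, with 1 called higher in each. Most of their summed level came from Smtn (smoothelin), at 62.3 CPM in J1 serum, compared with 39.2 CPM in J1 2i. Mylk, the kinase that phosphorylates Myl9, was the gene called higher, by a log2 change of 0.89 ± 0.23 in J1 and 1.08 ± 0.22 in 3B3-3l, at group means of 0.63 to 1.45 CPM. Of 12 tested fibroblast genes, 11 were called lower in 2i in each line, 1 higher in J1 and 0 higher in 3B3-3l. Among 6 tested early mesoderm genes, 2 were called higher in J1 2i (1 lower) and 4 in 3B3-3l 2i (2 lower), and their summed level, over 8 genes, was 8.19 CPM in J1 serum, compared with 44.3 CPM in J1 2i. Of 9 primitive endoderm genes, 3 were called higher in J1 2i (3 lower) and 1 in 3B3-3l 2i (6 lower). Of 8 pluripotency genes, 3 were called higher in J1 2i (4 lower) and 4 in 3B3-3l 2i (3 lower).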
